A study of Homo sapiens with 6 samples.

Results

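Transcripts of snoRNA host genes were compared between HCT116 cells that carried an empty vector and HCT116 cells that overexpressed SETD8. The hosts were taken by name: every row whose GENCODE 29 or current symbol is SNHG followed by digits, together with GAS5, ZFAS1, DANCR and EPB41L4A-AS1. That rule found 33 of the 58735 gene rows, of which SNHG28 fills 2, and 26 of the 33 passed the filter on low counts. The rule itself uses names and no measured value, but the set was chosen with earlier results of these data known.

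HCT116 is an established colorectal carcinoma line, and SETD8 is an enzyme that methylates lysine in histone H4 and is encoded by KMT5A. The vector group has 3 libraries, with genotype WT and treatment Vector in the labels, and the SETD8 group has 3 libraries labelled SETD8 overexpression. Both groups went through lentiviral transduction and puromycin selection of stable clones according to the treatment label, whereas the design text speaks of transfection. The number of clones behind each group and the promoter of the construct were not given in the sources used here. The labels do not tie replicates to separate cultures, and each p-value therefore reflects the spread between these samples alone, which may be technical. RNA was poly(A)-selected, so unpolyadenylated RNA such as most mature snoRNA is largely lost before sequencing.

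A snoRNA is a small nucleolar RNA that guides a chemical change on another RNA, mostly ribosomal RNA. Box C/D snoRNAs guide 2'-O-methylation with the methyltransferase fibrillarin, box H/ACA snoRNAs guide the change of uridine to pseudouridine with dyskerin, and the related scaRNAs act in Cajal bodies. Most human snoRNAs are cut out of the introns of a host transcript after splicing. In most of the hosts described here the spliced RNA left behind is annotated as noncoding; GENCODE 29 lists SNHG32 and 1 of the SNHG28 rows as protein-coding. Several hosts, GAS5 being the classic case, begin with a run of pyrimidines like that of ribosomal protein messengers (a 5' terminal oligopyrimidine, or TOP, start), and their spliced RNA is engaged by ribosomes and removed by nonsense-mediated decay. The level of a spliced host is therefore not a measure of the snoRNAs it carries.

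Libraries held 17056672 to 20471843 counted reads, and values per library are given in the order of replicates 1, 2 and 3. Levels are CPM, read counts scaled to library size after TMM scaling, where 3 counts equal 0.15 to 0.174 CPM (counting error only). Along the first principal component (46.4% of the variance) vector replicate 1, at -0.94, was apart from vector replicates 2 and 3, at 25.7 and 39.3, and the SETD8 libraries lay between -23.8 and -16.5. KMT5A was 1.41-fold higher with SETD8 (log2 fold change 0.49 with SE 0.10, edgeR adjusted p = 0.0156). Summed levels of 8 epithelial and colon markers were 8120 to 9740 CPM in vector and 8230 to 8960 CPM in SETD8 libraries, although LGALS4 and VIL1 were near 0 and CDH1 fell (log2 fold change -0.54, edgeR adjusted p = 0.0218). The CDH1 call was absent when vector replicate 2 or 3 (edgeR adjusted p = 0.138 and 0.0522) or SETD8 replicate 1, 2 or 3 (0.119, 0.069 and 0.107) was omitted. Markers of other cells summed to at most 7.27 CPM for 6 fibroblast genes, 0.977 CPM for 5 immune genes and 2.27 CPM for 4 endothelial genes, with COL1A2, DCN, PTPRC, CD3E and KDR at 0 in every library. Mitochondrial transcripts took 6.60% ± 1.01 of vector counts and 5.07% ± 0.25 of SETD8 counts (SD, n = 3 per group, exact two-sided permutation p = 0.1, which is the smallest possible here).

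Of the 26 tested hosts, 7 rose with SETD8 and 0 fell (adjusted p under 0.05, edgeR quasi-likelihood test). Either direction counted, 7.83% of the 14370 genes tested were called. The hosts that rose were SNHG32, SNHG7, SNHG11, SNHG6, SNHG29, GAS5 and SNHG1, by 1.32-fold to 1.76-fold. Of the 14370 genes tested, 3.08% rose and 4.75% fell, so the 26.9% of hosts that rose was above the share for genes at large. With 26 hosts, 0 that fell cannot be told from the share of all genes that fell. At an unadjusted edgeR p under 0.05, 13 hosts were higher and 0 lower, beside 1763 higher and 1978 lower of the 14370 genes. DESeq2 and limma-voom also called 0 hosts lower, where they called 907 and 621 of all genes lower. The median log2 fold change was 0.36 over the tested hosts, from -0.40 for SNHG12 to 1.00 for SNHG9, beside 0.00 over all tested genes, and the fitted change was above 0 in 20 of 26 hosts (76.9%) against 50% of all genes. Tested hosts were short, with a median exonic length of 2809.5 bases against 4745 over all tested genes. When each library's trend with gene length was removed, the host median was 0.255, beside -0.001 over all genes. In bulk RNA, fewer cells with a transcript and less of it per cell cannot be told apart.

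The groups did not overlap, with every SETD8 library above every vector library, in 13 of the 26 hosts, or 50%, beside 14.4% of all genes tested. They did not overlap in the other direction in 1 host, ZFAS1, beside 15.9% of all genes. Summed over its rows, the host set took 0.0977%, 0.0936% and 0.0840% of the counts in the vector libraries and 0.117%, 0.120% and 0.122% in the SETD8 libraries. Every SETD8 library therefore spent a larger share of its reads on hosts than any vector library. SNHG29 alone made up the largest part of those reads, and without it the shares were 0.0565% to 0.0632% in vector and 0.0722% to 0.0781% in SETD8 libraries, which again did not overlap.

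**Figure D1:**
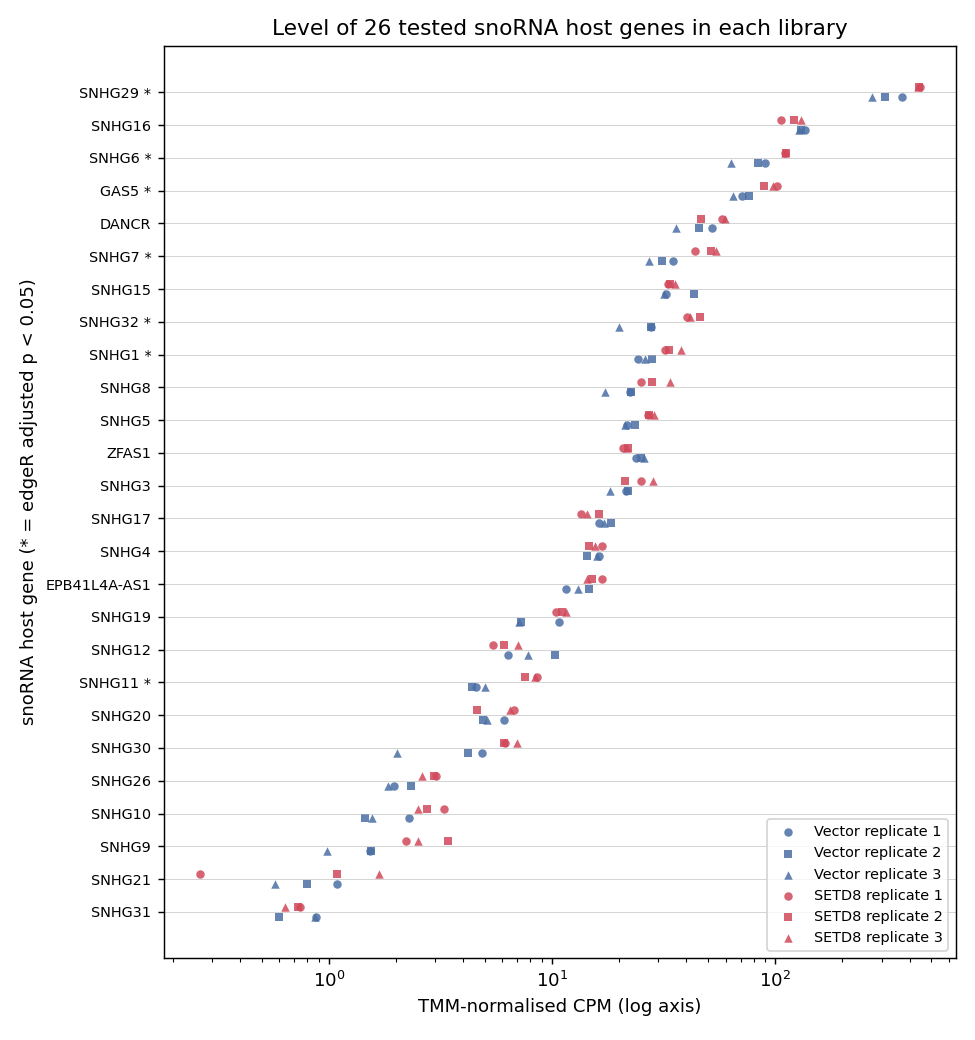
Level of each of the 26 tested hosts in each library, as TMM-scaled CPM on a log axis; an asterisk marks hosts with an edgeR adjusted p under 0.05. SNHG29 is highest in every library, and the marked hosts have all 3 SETD8 libraries above all 3 vector libraries.

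Some snoRNAs carried by the hosts that rose are printed to show what these introns encode. Each is the first of its host's snoRNAs in which the boxes marked below were found. The sequences are from GENCODE 29 on GRCh38, 5' to 3' and as DNA letters. Capitals mark the C box (TGATGA) and D box (CTGA) of box C/D snoRNAs, or the ACA box of box H/ACA snoRNAs. SNORD48 lies in SNHG32 at chr6:31835263-31835326 on the plus strand, SNORD49B in SNHG29 at chr17:16439505-16439576 on the plus strand and SNORD25 in SNHG1 at chr11:62855564-62855632 on the minus strand. SNORA17A lies in SNHG7 at chr9:136726747-136726879 on the minus strand and SNORA71E in SNHG11 at chr20:38448084-38448215 on the plus strand.
SNORD48: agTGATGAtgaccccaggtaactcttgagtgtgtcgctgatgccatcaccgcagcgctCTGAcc
SNORD49B: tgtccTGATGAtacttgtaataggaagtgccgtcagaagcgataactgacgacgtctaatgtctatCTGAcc
SNORD25: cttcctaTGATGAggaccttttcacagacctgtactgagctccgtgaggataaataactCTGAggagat
SNORA17A: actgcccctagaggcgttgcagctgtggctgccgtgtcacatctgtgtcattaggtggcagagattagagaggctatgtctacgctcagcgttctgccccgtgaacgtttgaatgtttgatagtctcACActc
SNORA71E: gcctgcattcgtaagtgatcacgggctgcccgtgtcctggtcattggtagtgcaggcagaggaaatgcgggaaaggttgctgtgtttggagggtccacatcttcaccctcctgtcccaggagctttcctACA
The box C/D snoRNAs are 64, 72 and 69 bases long with a box near each end, while the box H/ACA snoRNAs are 133 and 132 bases long with the ACA box at the 3' end. The H box of this class was not searched for and is not marked.

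SNHG29, a host of 3 box C/D snoRNAs (SNORD49A, SNORD49B and SNORD65), was the most abundant host. It lies on chromosome 17 from 16438822 to 16478678, plus strand, and GENCODE 29 lists it as LRRC75A-AS1. It stood at 371, 311 and 273 CPM in the vector libraries and at 443.5, 442 and 438 CPM in the SETD8 libraries. The SETD8 libraries were nearly level with each other and all above the vector libraries, which spread widely (means 318 ± 49.6 and 441 ± 2.61 CPM, SD, n = 3 per group). The difference was 1.39-fold (log2 fold change 0.47 with SE 0.10, 95% interval 0.18 to 0.76, edgeR adjusted p = 0.0208). It no longer passed when vector replicate 2 (edgeR adjusted p = 0.108) or SETD8 replicate 1, 2 or 3 was omitted (0.102, 0.0831 and 0.0949).

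SNHG32, a host of SNORD48 and SNORD52 listed as C6orf48 in GENCODE 29, had the second largest rise among the called hosts. It lies on chromosome 6 from 31834608 to 31839766, plus strand, in the major histocompatibility complex. Its levels were 27.8, 27.8 and 20.1 CPM in the vector libraries and 40.2, 46.3 and 41.5 CPM in the SETD8 libraries, so the lowest SETD8 library was well above the highest vector library. Means of 25.2 ± 4.49 and 42.6 ± 3.22 CPM (SD, n = 3 per group) gave a 1.69-fold rise (log2 fold change 0.76 with SE 0.13, edgeR adjusted p = 0.00836). SNHG32 was the host whose call survived most single-library omissions, 4 of 6. It was lost without SETD8 replicate 1 (edgeR adjusted p = 0.0508) or SETD8 replicate 2 (0.0561).

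SNHG6, which carries SNORD87, rose 1.4-fold. It lies on chromosome 8 from 66921684 to 66926398, minus strand. It stood at 89.6, 83.7 and 63.4 CPM in the vector libraries and at 110.2, 112 and 111 CPM in the SETD8 libraries, with no overlap and an SD of under 1 CPM in the SETD8 group (means 78.9 ± 13.8 and 111 ± 0.707 CPM, SD, n = 3 per group). The log2 fold change was 0.49 (SE 0.11, edgeR adjusted p = 0.0243), and it was 0.31 (edgeR adjusted p = 0.0331) when each library's trend with gene length was removed. It no longer passed when vector replicate 2 (edgeR adjusted p = 0.0889) or SETD8 replicate 1, 2 or 3 was omitted (0.106, 0.092 and 0.102).

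SNHG1 carries 8 box C/D snoRNAs, SNORD22 and SNORD25 to SNORD31, and was the host closest to the threshold among those that rose. It lies on chromosome 11 from 62851988 to 62855914, minus strand. Its vector libraries had 24.3, 28.0 and 26.1 CPM and its SETD8 libraries had 31.9, 33.5 and 37.9 CPM, again without overlap. Group means of 26.1 ± 1.84 and 34.5 ± 3.07 CPM (SD, n = 3 per group) made a 1.32-fold rise (log2 fold change 0.40 with SE 0.11, edgeR adjusted p = 0.0467). Its call ended when the trend with gene length was removed (edgeR adjusted p = 0.0572), without vector replicate 2 (0.119) and without SETD8 replicate 1, 2 or 3 (0.111, 0.12 and 0.2).

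GAS5, growth arrest-specific 5, whose spliced RNA accumulates when translation and hence nonsense-mediated decay are blocked, carries the most snoRNAs of the hosts that rose. The RefSeq table places 10 box C/D and 1 box H/ACA snoRNA inside it, among them SNORD44, SNORD47 and SNORD74 to SNORD81. It lies on chromosome 1 from 173863900 to 173868882, minus strand. It stood at 71.4, 76.5 and 65.0 CPM in the vector libraries and at 102.3, 89.3 and 98.2 CPM in the SETD8 libraries, so the groups were apart by more than 12 CPM. Means of 71.0 ± 5.73 and 96.6 ± 6.66 CPM (SD, n = 3 per group) gave a 1.36-fold rise (log2 fold change 0.44 with SE 0.09, edgeR adjusted p = 0.017). It no longer passed when vector replicate 2 (edgeR adjusted p = 0.0637) or SETD8 replicate 1, 2 or 3 was omitted (0.106, 0.0529 and 0.0911).

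Both remaining hosts that rose carry box H/ACA snoRNAs. SNHG7, host of SNORA17A and SNORA17B, lies on chromosome 9 from 136721366 to 136728184, minus strand, and had the smallest adjusted p of the hosts. Its levels were 34.9, 31.0 and 27.2 CPM in the vector libraries and 44.0, 51.6 and 54.2 CPM in the SETD8 libraries. The groups did not overlap (means 31.1 ± 3.82 and 49.9 ± 5.32 CPM, SD, n = 3 per group), and the rise was 1.61-fold (log2 fold change 0.68 with SE 0.12, edgeR adjusted p = 0.0083). It no longer passed when vector replicate 2 (edgeR adjusted p = 0.0632) or SETD8 replicate 1, 2 or 3 was omitted (0.0508, 0.0531 and 0.0632).

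SNHG11, host of SNORA71E and SNORA60, lies on chromosome 20 from 38446578 to 38450921, plus strand. It was the least abundant host that rose and the one with the largest fold. It stood at 4.58, 4.39 and 5.01 CPM in the vector libraries and at 8.58, 7.61 and 8.38 CPM in the SETD8 libraries, so each group was tight and the groups were far apart. Means of 4.66 ± 0.319 and 8.19 ± 0.512 CPM (SD, n = 3 per group) gave a 1.76-fold rise (log2 fold change 0.81 with SE 0.17, edgeR adjusted p = 0.0161). It no longer passed when vector replicate 2 (edgeR adjusted p = 0.0934) or SETD8 replicate 1, 2 or 3 was omitted (0.0937, 0.0561 and 0.0763). Across the 7 hosts, vector replicate 3 was the lowest vector library in 5, and vector replicate 1, which lay between the groups on the first component, was the highest vector library in 3.

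**Figure D2:**
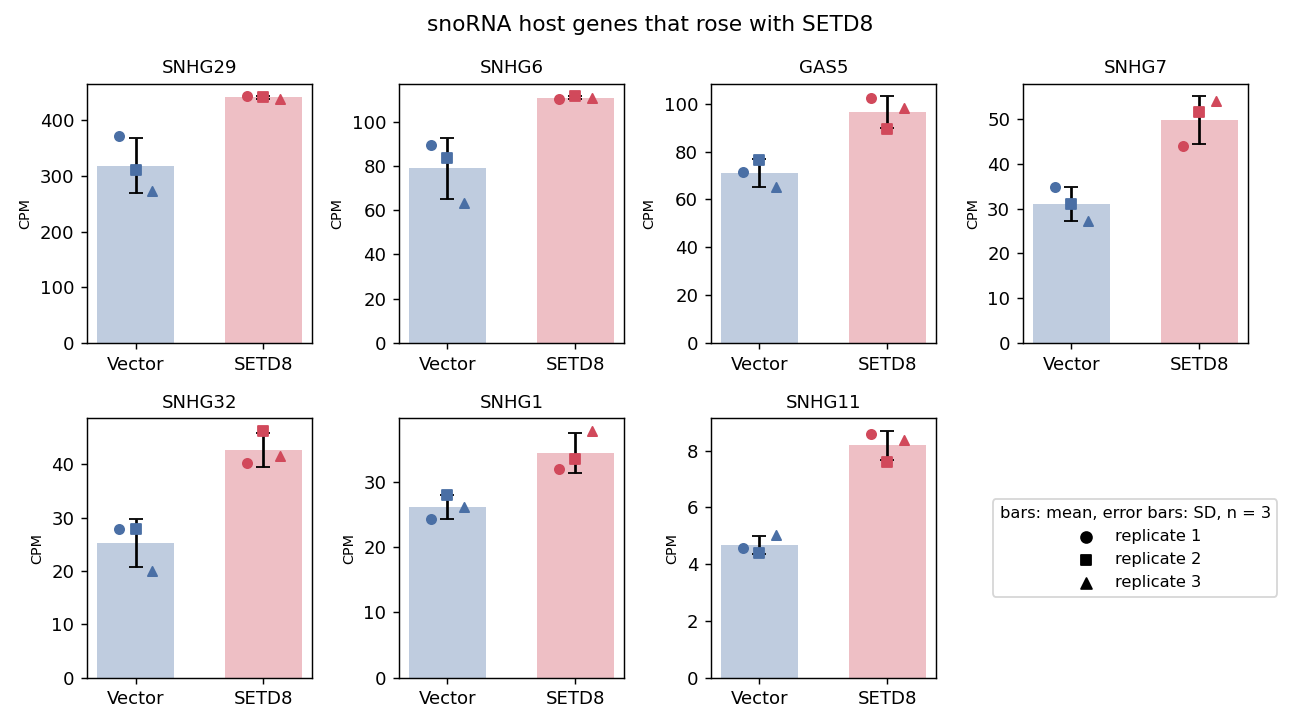
Level of the 7 hosts that rose, in TMM-scaled CPM, with bars for the group mean, error bars for the SD over 3 libraries and points for single libraries. In each host the lowest SETD8 point lies above the highest vector point, from SNHG11 near 8 CPM to SNHG29 near 441 CPM.

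Other hosts had groups that did not overlap without passing the test. SNHG8, a host of 1 box H/ACA snoRNA, had 22.5, 22.6 and 17.3 CPM in the vector libraries and 25.1, 28.2 and 33.7 CPM in the SETD8 libraries (log2 fold change 0.48 with SE 0.14, edgeR adjusted p = 0.055). SNHG5, whose span holds 2 snoRNAs, had 21.6, 23.4 and 21.3 against 26.8, 27.2 and 28.8 CPM (log2 fold change 0.32 with SE 0.11, edgeR adjusted p = 0.0839). These values were close within each group and a little apart between groups. SNHG9 stood at 1.53, 1.55 and 0.98 against 2.23, 3.42 and 2.50 CPM, with the largest fitted change of any host and the widest interval of those that did not overlap (log2 fold change 1.00, 95% interval 0.14 to 1.86, edgeR adjusted p = 0.0642). SNHG30 stood at 4.85, 4.19 and 2.02 against 6.14, 6.11 and 6.98 CPM (log2 fold change 0.79, edgeR adjusted p = 0.081). DESeq2 placed SNHG8, SNHG30 and SNHG9 below 0.05 (adjusted p = 0.0237, 0.0386 and 0.0494), as did the edgeR fit without a filter on low counts. SNHG10 and SNHG26, both under 4 CPM, had log2 fold changes of 0.69 and 0.48 (edgeR adjusted p = 0.144 and 0.249).

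Of the 8 hosts highest by mean CPM, SNHG16, SNHG15 and DANCR did not pass the test. SNHG16, a host of 3 box C/D snoRNAs on chromosome 17 from 76557766 to 76565348 and the second highest host by CPM, had 136, 131 and 128 CPM in the vector libraries and 106, 122 and 129.9 CPM in the SETD8 libraries. The SETD8 group reached into the vector range (means 131 ± 4.16 and 119 ± 12.1 CPM, SD, n = 3 per group), with a log2 fold change of -0.14 (95% interval -0.40 to 0.11, edgeR adjusted p = 0.35). That interval ends below the fitted change of each of the 7 hosts that rose, though the difference between hosts was not tested. SNHG15, the host of SNORA9 on chromosome 7 from 44983023 to 44986961, had 32.3, 43.4 and 31.7 against 33.2, 34.0 and 35.5 CPM, and its high value in vector replicate 2 lay above all others (log2 fold change -0.07, 95% interval -0.42 to 0.29, edgeR adjusted p = 0.78). DANCR, the host of SNORA26 on chromosome 4 from 52712404 to 52720351 and named for its role against differentiation, had 52.3, 45.5 and 35.9 against 57.8, 46.3 and 59.5 CPM. Its groups overlapped (means 44.6 ± 8.25 and 54.5 ± 7.15 CPM, SD, n = 3 per group, log2 fold change 0.29, 95% interval -0.09 to 0.67, edgeR adjusted p = 0.2). DANCR was among 7 hosts that passed the test with vector replicate 1 left out and not with all 6 libraries (log2 fold change 0.42, edgeR adjusted p = 0.0177).

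The fitted change was below 0 in 6 hosts. ZFAS1, the host of 3 box C/D snoRNAs on chromosome 20 from 49278178 to 49295738, had 23.8, 25 and 25.8 CPM in the vector libraries and 20.9, 21.9 and 21.6 CPM in the SETD8 libraries, and every SETD8 library was below every vector library. The difference did not pass the test (log2 fold change -0.21, 95% interval -0.51 to 0.09, edgeR adjusted p = 0.233). SNHG12, with 1 box C/D and 3 box H/ACA snoRNAs, had 6.38, 10.3 and 7.78 against 5.46, 6.11 and 7.04 CPM, which overlapped (log2 fold change -0.40, edgeR adjusted p = 0.223). Without vector replicate 1, SNHG12 passed as lower (log2 fold change -0.56, edgeR adjusted p = 0.0402). SNHG17, with 4 box H/ACA snoRNAs, had a log2 fold change of -0.23 (edgeR adjusted p = 0.263), and SNHG16, SNHG15 and the low-level SNHG31 (-0.14, edgeR adjusted p = 0.864) made up the rest. Of the other hosts that did not pass, SNHG4 had nearly equal means of 15.5 ± 1.01 and 15.7 ± 1.07 CPM (SD, n = 3 per group, log2 fold change 0.01, 95% interval -0.33 to 0.36). SNHG3, SNHG19, EPB41L4A-AS1, SNHG20 and SNHG21 had overlapping groups and log2 fold changes of 0.14 to 0.40.

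**Figure D3:**
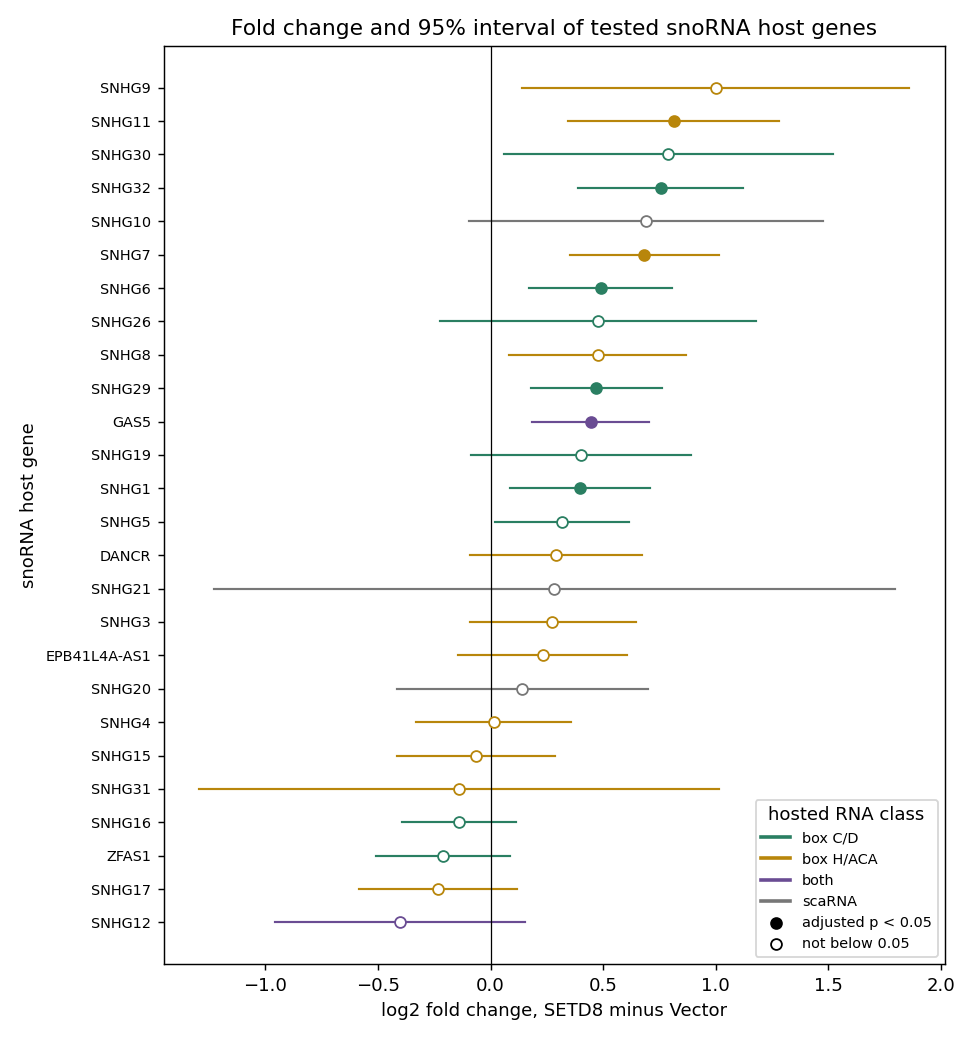
Log2 fold change (SETD8 over vector) of each tested host with its 95% interval, coloured by the class of snoRNA the host carries; filled points are hosts with an edgeR adjusted p under 0.05. The filled points run from 0.40 for SNHG1 to 0.81 for SNHG11, and 6 hosts lie below 0.

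Levels of different hosts were compared per kilobase of exonic sequence that belongs to the host alone, because reads in bases shared with another gene appear mostly uncounted. That sequence joins the exons of all GENCODE 29 transcripts of a host, such as 3589 bases over 29 transcripts for GAS5 and 793 over 5 for SNHG6. The order therefore depends on the annotation as well as on the level. On that scale, CPM per kilobase, and ordered by the mean over all 6 libraries, SNHG29 (103 in vector and 143 in SETD8) and SNHG6 (99.5 and 140) were the highest. Their library ranges overlapped in the vector group and not in the SETD8 group, where SNHG29 was at 141.8 to 143.5 and SNHG6 at 139 to 140.7. SNHG16 came next (36.8 and 33.4), followed by SNHG8 (26.3 and 36.6), SNHG19 (24.4 and 32.2), SNHG32 (19.8 and 33.4), DANCR (22.1 and 27.1), GAS5 (19.8 and 26.9) and ZFAS1 (20.9 and 18.1). SNHG7 (10.4 and 16.7), SNHG15 (10.2 and 9.74) and SNHG1 (8.22 and 10.8) formed a lower tier. The order differed between the groups in places: SNHG8 was above SNHG16 in the SETD8 means, and SNHG32 was below DANCR and ZFAS1 in the vector means. SNHG11 stood at 1.74 and 3.05, and SNHG31 was lowest at 0.369 and 0.333. Of the 25 pairs of hosts next to each other in this order, 7 had ranges that overlapped in both groups (among them SNHG8 with SNHG19, SNHG19 with SNHG32, DANCR with GAS5 and SNHG1 with SNHG5), and 5 overlapped in neither, such as SNHG6 with SNHG16. The share of exonic bases that a tested host does not share had a median of 86.9% and ran from 27.1% for SNHG21 to 100%.

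The 7 untested rows held almost no reads. SNHG25 had 1 to 6 counts in a library and 18 in all, SNHG14, the host of the large SNORD115 and SNORD116 clusters of the imprinted Prader-Willi region, had 7 in all, and SNHG22 and the second SNHG28 row had 1 each. Unshared exonic bases were 51.4% in SNHG25 and 44.5% in that SNHG28 row, so their counts may miss reads in shared bases. SNHG18 and SNHG27 had 0 counts in each library, which at this depth allows a level of up to 0.15 to 0.174 CPM (3 counts). The remaining SNHG28 row also had 0, but all of its exonic bases are shared with other genes on its strand, so its 0 sets no limit.

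Hosts of either snoRNA class were among those that rose. By the RefSeq table, 4 of 10 tested hosts with box C/D snoRNAs alone rose (median log2 fold change 0.43), as did 2 of 11 with box H/ACA snoRNAs alone (0.28), 1 of 2 with both classes (GAS5, with SNHG12 as the other) and 0 of 3 with scaRNAs alone (0.28). None of these hosts fell. Hosts with at least 3 snoRNAs rose in 3 of 7 and had a median of -0.14, while those with 1 or 2 rose in 4 of 19 and had a median of 0.40. Of the 6 values below 0, 4 were in hosts with at least 3 snoRNAs. By level, 6 of 16 hosts at 10 CPM or more rose (median 0.30) and 1 of 10 below that level rose (0.44). These differences between groups of hosts were not tested.

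The start of the transcript was read for a TOP-like run, taken as a C at the annotated start followed by at least 4 C or T. Such a start was found in 39 of 303 GENCODE 29 transcripts of the hosts (12.9%) against 2.41% of 206694 GENCODE 29 transcripts, and in 7 of 28 hosts in the RefSeq promoter table of GRCh38.p14 (25%) against 4.07% of the 35116 promoters in that table. The search was on the transcript's own strand only. First bases of GENCODE 29 transcripts are printed for hosts that rose (GAS5, SNHG29, SNHG1 and SNHG11) and for hosts that did not (SNHG16 and ZFAS1), with the run in capitals.
GAS5: CTTTTCgaggtaggagtcgactcct
SNHG29: CTTTTCattcccgttgttatggagg
SNHG1: CTCCTgtctgcaggatttacgcgca
SNHG11: CCCCTCagcctcctccgcgcggtta
SNHG16: CTTTTCgaggtcggccgcgtggctg
ZFAS1: CTTTCgcgtctgcggtgcccggagt
The start shown is 1 of several: a TOP-like run opens 6 of 29 GAS5 transcripts, 6 of 30 of SNHG29, 1 of 25 of SNHG1, 1 of 15 of SNHG11, 2 of 8 of SNHG16 and 3 of 10 of ZFAS1. Starts of GAS5, SNHG29, SNHG16 and SNHG19 open with the same run of letters. Of these hosts, GAS5 and SNHG29 rose, and SNHG16 and SNHG19 did not pass the test.

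For SNHG32 the RefSeq start itself has the run, shown in capitals after the 25 bases before it at chr6:31834891-31834940 on the plus strand of GRCh38.p14, beside the same window of ZFAS1 at chr20:49278617-49278666 on the plus strand.
SNHG32: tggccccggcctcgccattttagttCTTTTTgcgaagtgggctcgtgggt
ZFAS1: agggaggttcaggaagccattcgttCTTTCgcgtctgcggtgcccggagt
Among tested hosts, 5 of 13 with such a GENCODE transcript rose (median log2 fold change 0.40) and 2 of 13 without one did (0.29), a difference that was not tested. SNHG32 is among those without such a GENCODE transcript, and the split depends on the annotation. By RefSeq start, SNHG32 had the run and rose, while SNHG12, SNHG4, SNHG5, SNHG19 and ZFAS1 had it and did not pass. GAS5, SNHG29, SNHG1, SNHG11 and SNHG7 rose without the run at that start, and SNHG6 had no entry. No match in these windows says only that the letters are not at the annotated start.

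The snoRNAs themselves were not measurable in these libraries. GENCODE 29 places 144 snoRNA and scaRNA rows inside the hosts, and 17 of them held any count, with 21 to 48 counts in all per library and at most 41 in 1 row over the 6 libraries. None passed the filter on low counts. All 50 rows that overlap an exon of their host held 0 counts. Over the whole table, 0 of 159 snoRNA rows that lie wholly within a same-strand exon of another gene had a count, against 141 of 767 (18.4%) that overlap no exon, so a 0 in such a row says nothing of the snoRNA. Among longer rows that lie wholly within same-strand exons of another gene, 50 of 567 (8.82%) held a count, 1 of them at least 60.

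Across strands, 0 of 495 longer rows that lie wholly within exons on the opposite strand had a count, against 15646 of 35185 (44.5%) that share none. Host values therefore appear to come mostly from unshared bases, and 4 of 13 hosts that share bases with the opposite strand rose against 3 of 13 that share none. Of the genes overlapping a host that rose, FAM69B (now DIPK1B) on the strand opposite SNHG7 had a change of the same sign (13.5 and 18.2 CPM, log2 fold change 0.43 with SE 0.13, edgeR adjusted p = 0.0535). LRRC75A opposite SNHG29 had a change of the other sign (3.14 and 2.22 CPM, log2 fold change -0.50, edgeR adjusted p = 0.244). GAS5-AS1 opposite GAS5 and MCMDC2 opposite SNHG6 held 18 and 28 counts over all libraries and were not tested.

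Genes that start head to head with a host, upstream of its annotated start and within 1000 bases, did not pass the test. Genes on the other strand that start inside a host, and so overlap it, were not counted here. The counted genes numbered 8, of which 5 were tested and 0 called, beside 7.83% of all tested genes. With 5 genes, 0 calls cannot be told from that share. At an unadjusted edgeR p under 0.05, 1 was higher and 0 lower, beside 1763 and 1978 of all 14370 genes. That 1 was SLC3A2, which encodes the heavy chain of an amino acid transporter and starts 188 bases from SNHG1: it had 301, 288 and 249 CPM in the vector libraries and 308, 317 and 336 CPM in the SETD8 libraries, without overlap (log2 fold change 0.20 with SE 0.09, edgeR adjusted p = 0.192). RPS2, a ribosomal protein gene 99 bases from SNHG9, had a log2 fold change of 0.05 (edgeR adjusted p = 0.86). TRAF7 beside SNHG19, BARD1 beside SNHG31 and ACAA2 beside SNHG22 had -0.09, -0.20 and -0.20 (edgeR adjusted p = 0.555, 0.405 and 0.351).

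Genes that work with snoRNAs or their hosts were called in few cases, beside 3.08% of all tested genes that rose and 4.75% that fell. At an unadjusted edgeR p under 0.05, 1763 of the 14370 genes were higher and 1978 lower, and DESeq2 called 739 higher and 907 lower. With 8 to 40 genes each, the lists are too short to tell their shares of calls from those of all genes. That difference was not tested. Of 8 core proteins of the snoRNA particles, 0 passed the test in either direction (3 higher and 0 lower at an unadjusted p under 0.05, and 2 higher by DESeq2), with a median log2 fold change of 0.16. GAR1 and NOP10, both of the box H/ACA particle, had log2 fold changes of 0.35 and 0.42 (edgeR adjusted p = 0.0588 and 0.0663) with groups that did not overlap. Fibrillarin (FBL) had -0.04 (edgeR adjusted p = 0.858) and dyskerin (DKC1) 0.00 (edgeR adjusted p = 0.999). Without vector replicate 1 the core list had 4 higher, and scaling by library totals gave 2, beside 12% and 5.51% of all genes. Of 12 assembly factors of the particles 0 passed (1 higher at an unadjusted p under 0.05, 0 by DESeq2, median 0.03), with RUVBL1 at 0.31 (edgeR adjusted p = 0.118).

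Among 19 factors of nonsense-mediated decay, 1 rose and 0 fell (median log2 fold change -0.03). The one that rose was MAGOH, a subunit of the exon junction complex, at 20.1, 14.5 and 13.8 CPM in the vector libraries and 23.2, 26.5 and 27.0 CPM in the SETD8 libraries (log2 fold change 0.67 with SE 0.15, edgeR adjusted p = 0.0207). Among 40 protein-coding genes that host snoRNAs, 1 rose and 1 fell (median 0.04). RPLP2, a ribosomal stalk protein, rose from 526 ± 86.6 to 695 ± 10.0 CPM (SD, n = 3 per group, log2 fold change 0.40, edgeR adjusted p = 0.045), and HSPA8, the constitutive heat shock chaperone, fell from 2953 ± 231 to 2224 ± 156 CPM (log2 fold change -0.41, edgeR adjusted p = 0.0314).

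Of 15 RNA polymerase I and ribosomal DNA factors, 0 passed in either direction (1 higher and 3 lower at an unadjusted p under 0.05, 0 by DESeq2, median -0.12), with UBTF at -0.21 (edgeR adjusted p = 0.118). Of 10 regulators of TOP translation, 1 fell (median 0.04). It was RPTOR, the raptor subunit of mTORC1, from 170 ± 9.36 to 136 ± 2.56 CPM (SD, n = 3 per group, log2 fold change -0.33, edgeR adjusted p = 0.0303), while LARP1, which binds TOP messengers, had -0.23 (edgeR adjusted p = 0.142). The MAGOH, RPLP2, HSPA8 and RPTOR calls were each lost without vector replicate 2 and without each SETD8 library (edgeR adjusted p from 0.0705 for MAGOH to 0.161 for RPLP2). The RPLP2 and RPTOR calls also ended when the trend with gene length was removed (0.0777 and 0.12).

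**Figure D4:**
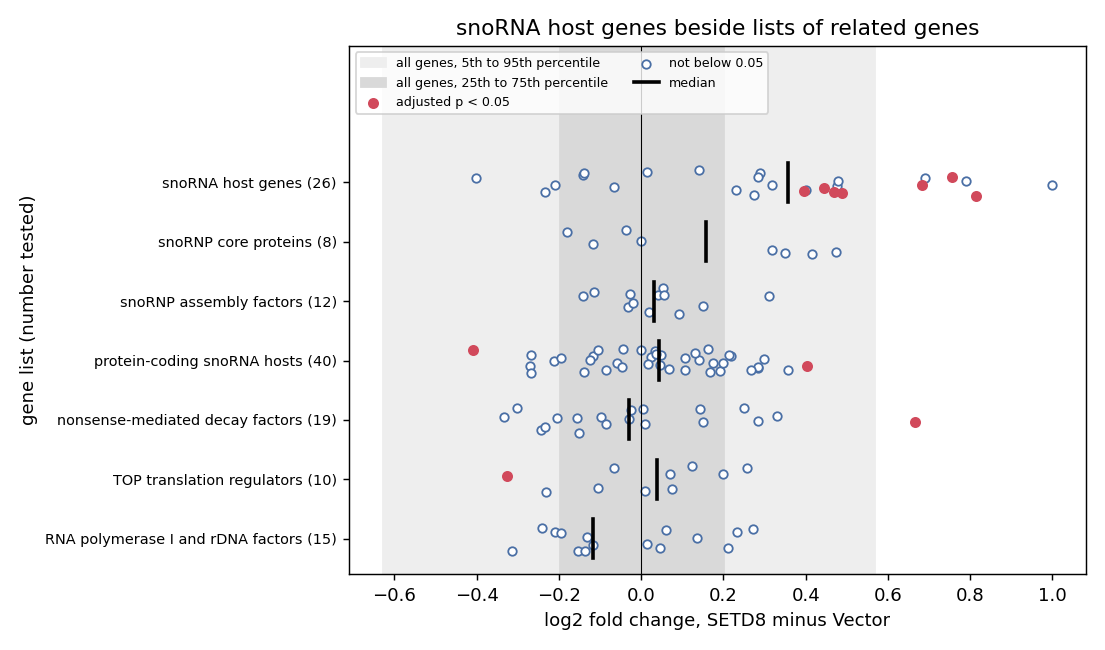
Log2 fold change (SETD8 over vector) of each tested gene in the hosts and in 6 related lists, with the median of each list in black and grey bands for the 5th to 95th and 25th to 75th percentiles of all 14370 genes. The host median is 0.36, beside 0.00 over all genes, and the medians of the 6 lists run from -0.12 to 0.16. Values are from the fit that leaves the trend with gene length in, and the host median is 0.255 without that trend.

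The rises depended on which libraries were in the fit. Calls among hosts were 7 with DESeq2-type size factors, 8 with library totals (where SNHG8 passed), 10 with DESeq2, 7 with limma-voom and 6 when the trend with gene length was removed, none of them lower. In the same order, 3.4%, 5.51%, 5.14%, 3.26% and 3.61% of all tested genes were called higher, against 3.08% as reported. Scaling by library totals gave 792 higher and 505 lower genes in all, in place of 443 and 682. Without vector replicate 1, 13 hosts were higher and 1 lower among 3509 called genes, and 12% of all genes tested in that fit were higher. Without vector replicate 2 or SETD8 replicate 3, SNHG32 alone passed, and without SETD8 replicate 1 or 2 no host did, where all genes called numbered 72, 129, 11 and 155. The fitted change stayed above 0 in each of the 7 hosts under each of these settings. In these hosts every SETD8 library was above every vector library, so leaving out 1 library could hardly reverse the sign.

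**Figure D5:**
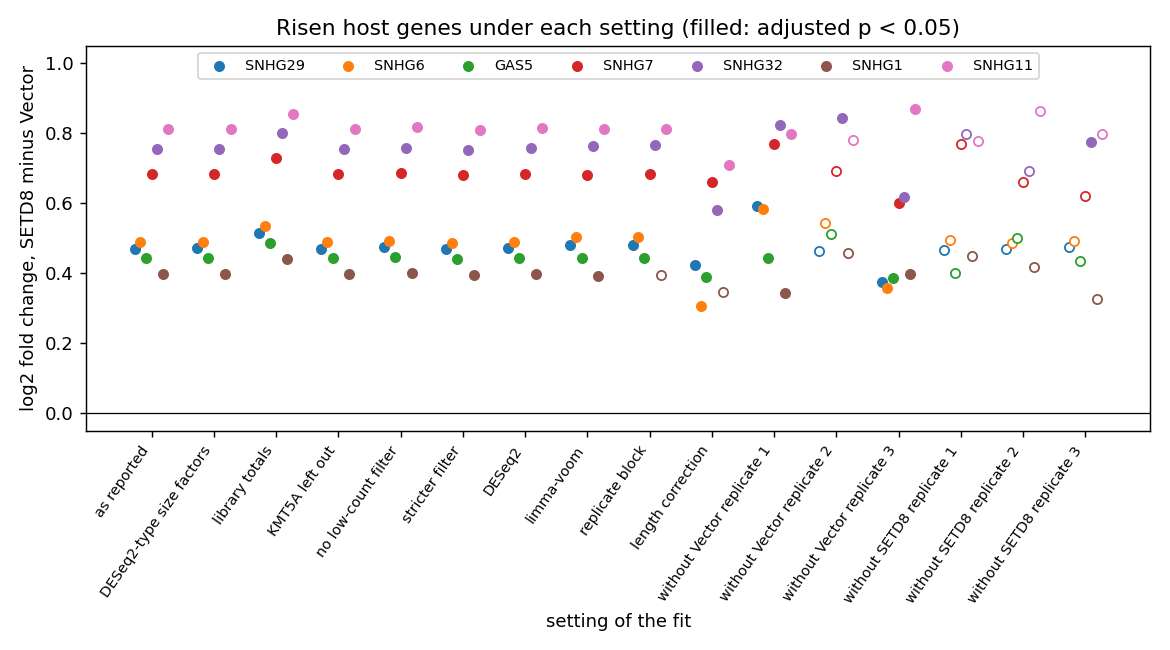
Log2 fold change of the 7 hosts that rose under each way of processing the counts; filled points have an adjusted p under 0.05. The values stay between 0.31 and 0.87 throughout, while most points are open where vector replicate 2 or a SETD8 library is left out.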

How the data were processed

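Poly(A)-selected RNA of 3 vector and 3 SETD8 libraries was sequenced with a strand-marking kit, per the labels' protocols. The values are raw read counts as deposited, whole numbers for 58735 Ensembl gene rows, and 0 columns belonged to other samples. HISAT2, STAR, featureCounts, HTSeq, GRCh38 and hg38 are named per the submitters' processing notes, with no role or version. The annotation and the strand setting of the counting were not given in the sources used here. Reads in exonic bases that another gene shares appear mostly uncounted, since 0 of 495 longer rows wholly within opposite-strand exons and 50 of 567 within same-strand exons held a count. Host values may miss shared exons. The columns named NC were taken as the vector group, the only group besides SETD8.

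All 58735 IDs matched GENCODE 29, which gave positions, exons and snoRNA sequences. RefSeq tables of GRCh38.p14 gave current symbols, promoters and snoRNA classes. The members and gene lists were chosen with earlier results of these data known.

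After filterByExpr (14370 genes) and TMM scaling, groups were compared by edgeR's robust quasi-likelihood test, two-sided and with no covariate. P-values were adjusted over every tested gene by Benjamini-Hochberg, with 0.05 as threshold (edgeR 4.0.16, limma 3.58.1, R 4.3.3). SEs are the log2 fold change over the square root of F, whose variance is moderated over all genes. The 95% intervals multiply these SEs by a t quantile with degrees of freedom from the libraries alone. An interval can therefore include no change where the unadjusted p of the edgeR test is under 0.05. The biological coefficient of variation was 0.116. Tested genes held 99.9% of counts. Overlaps were found with bedtools 2.31.1, counting a row as wholly within exons at 99.9% of its bases. Full values are given for SNHG1, SNHG7, GAS5, hosts called and the 8 highest by mean CPM. From each list, called genes and up to 4 by adjusted p may be named. Library values of a few other hosts were added after they were seen. Alternatives were 2 other scalings (DESeq2-type size factors and library totals), 2 other filters (none, or at least 1 CPM in each of the 3 libraries of 1 group), 2 other tools (limma-voom and DESeq2 1.42.0), omission of KMT5A or of each library in turn, the replicate number as a block, and removal of each library's length trend by lowess (span 0.3). The fit was tested on simulated data. Figures were drawn with matplotlib 3.10.9.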

Additional observations from a re-analysis of the deposited data

How the results depend on the processing

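The count of called hosts stayed within 1.5 times of the reported 7 under 9 settings other than leaving out a library, from 6 to 10, and went from 0 to 14 when single libraries were left out. Over all genes the count was 2000 without a low-count filter, and 11 to 3509 when single libraries were left out, against the reported 1125. A group left with 2 libraries has less power, and the cause of the differences between libraries was not tested. Among tested hosts, 26 calls were lost and 7 gained over the leave-outs, and 2 lost and 7 gained under the other settings. No called host changed direction, which was hardly possible in the reported 7, whose groups do not overlap. The replicate block gave 6 called hosts and 1177 called genes; SNHG1 was the host lost (edgeR adjusted p = 0.056). Replicate numbers are shared by the groups, but same-numbered libraries did not deviate together (correlations 0.03, 0.01 and -0.06), so the numbers were not used as pairs, and vector replicate 1 correlated best with SETD8 replicate 3 (0.07). Hosts under about 1 CPM, such as SNHG21 and SNHG31, have intervals wide enough to hold a change past 2-fold either way, so a change in them was not detectable at this depth.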
